A study of Mus musculus with 9 samples.

Results

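The nuclear genes for the subunits of the mitochondrial respiratory chain and ATP synthase were described in 1 RNA-Seq library of stimulated mouse plasmacytoid dendritic cells (pDCs). Genes were taken by their whole symbol. For complex I it was Nduf, the letter a, b, c, s or v, and a number, with nothing after it. For complex II it was Sdha to Sdhd. For complexes III and V it was Uqcr or Atp5 followed only by letters or digits. For complex IV it was Cox4 to Cox8 followed by 1 letter and at most 1 digit. The rule found 82 of the 52550 genes in the file, with genes at 0 included, and used no measured level. They were 36 genes of complex I, 4 of complex II, 8 of complex III, 17 of complex IV and 17 of complex V.

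The study sequenced 9 samples of pDCs from spleens of C57BL/6 mice, 3 for each *Ncf1* genotype: wild-type G/G, heterozygous G/A and homozygous knock-in A/A. *Ncf1* encodes the p47phox subunit of the phagocyte NADPH oxidase, and the knock-in allele, made with CRISPR/Cas9, changes an arginine of that protein to histidine. All samples were cultured with R848, an agonist of the RNA sensor TLR7, for 12 hours (the methods give 10 μg/mL), and the study's methods give female mice of 10 to 12 weeks for its experiments. Values came from A/A replicate 1. The remaining 8 libraries were not analysed here. No value below therefore carries a replicate error, and no comparison between genotypes or with unstimulated cells was made. In a bulk library, fewer cells of a type and less RNA per cell cannot be told apart.

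The file held 31408298 reads, and 17664 genes had at least 1. The pDC label was in keeping with the pDC markers: 10 of 10 had reads, from 46.2 to 2967 reads per 1000000 (CPM), among them *Siglech* (374 CPM) and *Bst2* (1657 CPM), whose products were used for the sort. Reads were found for 6 of 7 conventional DC markers (up to 135 CPM, *Flt3*), 6 of 6 macrophage markers (up to 298 CPM, *Cd68*), 2 of 6 T cell markers (*Cd4*, 19.5 CPM, with *Cd3e*, *Cd3d* and *Cd3g* at 0), 4 of 6 B cell markers (up to 3.69 CPM), 3 of 6 neutrophil markers (up to 14.7 CPM) and 3 of 6 erythroid markers (up to 2.83 CPM). Besides *Flt3* and *Cd68*, *Fcgr1* (180 CPM), *Zbtb46* (106), *Clec9a* (73.9) and *Csf1r* (49.0) lay above the lowest pDC marker, *Klk1* (46.2). List medians were 458 CPM for pDC, 37.0 for macrophage and 2.36 for conventional DC markers. The part of other cell types in the levels below was not tested. The Y-linked genes *Ddx3y* (102 CPM), *Eif2s3y* (86.1), *Kdm5d* (27) and *Uty* (19.0) had reads, whereas *Xist*, expressed from the inactive X chromosome of females, had 0, so these reads went against the stated sex. *Ncf1* itself had 1079 CPM, a value that does not tell the alleles apart.

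The respiratory chain passes electrons from NADH through complex I, or from succinate through complex II, to coenzyme Q, then through complex III and cytochrome c to complex IV, which reduces oxygen. Complexes I, III and IV pump protons across the inner mitochondrial membrane, and complex V, the ATP synthase, uses the returning protons to make ATP. Complexes I, III, IV and V also hold subunits encoded by mitochondrial DNA, while complex II is entirely nuclear. Several subunits of complex IV exist as isoforms from separate genes, of which some are known from heart and skeletal muscle, lung or testis.

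Nearly all of the subunit genes were expressed. Of the 82 genes, 78 had reads, 76 had at least 10, and 61 had over 1000. Beside them, 12201 of 21819 protein-coding genes had reads and 11615 had at least 10. The 6 members with fewer than 10 reads were all complex IV isoforms: *Cox4i2*, *Cox7b2*, *Cox8b* and *Cox8c* had 0, *Cox7a1* had 5 and *Cox6b2* had 7. The lowest of the remaining members, *Atp5s*, had 95 reads. All 82 together held 192949 reads, or 0.614% of the library (exact binomial 95% interval, 0.612% to 0.617%). Intervals here and below cover counting error only. Among the 61 genes with over 1000 reads the interval was at most ± 6.11% of the level, so fold differences well beyond that exceed their counting error. The order of genes at nearly the same level can lie within it.

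Levels of different genes were compared per length, as CPM per kilobase of union exon (CPM/kb), the length being all annotated exon bases of a gene. Within isoform families shares of reads are given as well, which are not scaled by length. The members had a median of 35.1 CPM/kb, against 3.83 CPM/kb for the 12201 protein-coding genes with reads. By this measure 74 of the 82 stood above that median and 66 above its upper quartile, 13.0 CPM/kb. Exon bases of long or intron-retaining transcripts lower this measure, and 23 members had a union length over 2 times their longest coding transcript. The values per kilobase of that transcript are therefore given as CPM/kb of coding transcript where the choice matters. On that scale the medians were 56.0 for the members and 5.66 for protein-coding genes, and 74 members again stood above the latter. In CPM, without scaling by length, the medians lay nearer to each other, at 55.6 for the members and 17.8 for protein-coding genes with reads.

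The complexes overlapped widely. Median levels were 69.2 CPM/kb for complex II, 52.9 for complex III, 36.0 for complex IV, 32.3 for complex I and 30.4 for complex V. Per kilobase of coding transcript they were 80.0, 87.6, 82.0, 44.3 and 80.6, so by these medians complexes II to V lay close together and complex I was lowest. The position of complex V at the bottom thus held only with union exons. The medians of complex IV include its isoforms with fewer than 10 reads. Over its 11 genes with at least 10 reads the median was 61.2 CPM/kb, above complex III. Over its 10 single or ubiquitous genes it was 57.5 CPM/kb. Per coding transcript these 10 had a median of 115, above that of every other complex. Complex III spanned the narrowest range per union exon, 2.18-fold between its lowest and highest gene, and per coding transcript, from 43.2 to 132 CPM/kb. Per coding sequence complex II was narrower, from 105 to 272 against 70.4 to 267 CPM/kb. The range per union exon was 4.04-fold in complex II, 11.7-fold among the 11 genes of complex IV with at least 10 reads, 59.3-fold in complex I and 106-fold in complex V, or 20.4-fold over the 15 structural subunits of complex V, without *Atp5s* and *Atp5sl*.

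**Figure D1:**
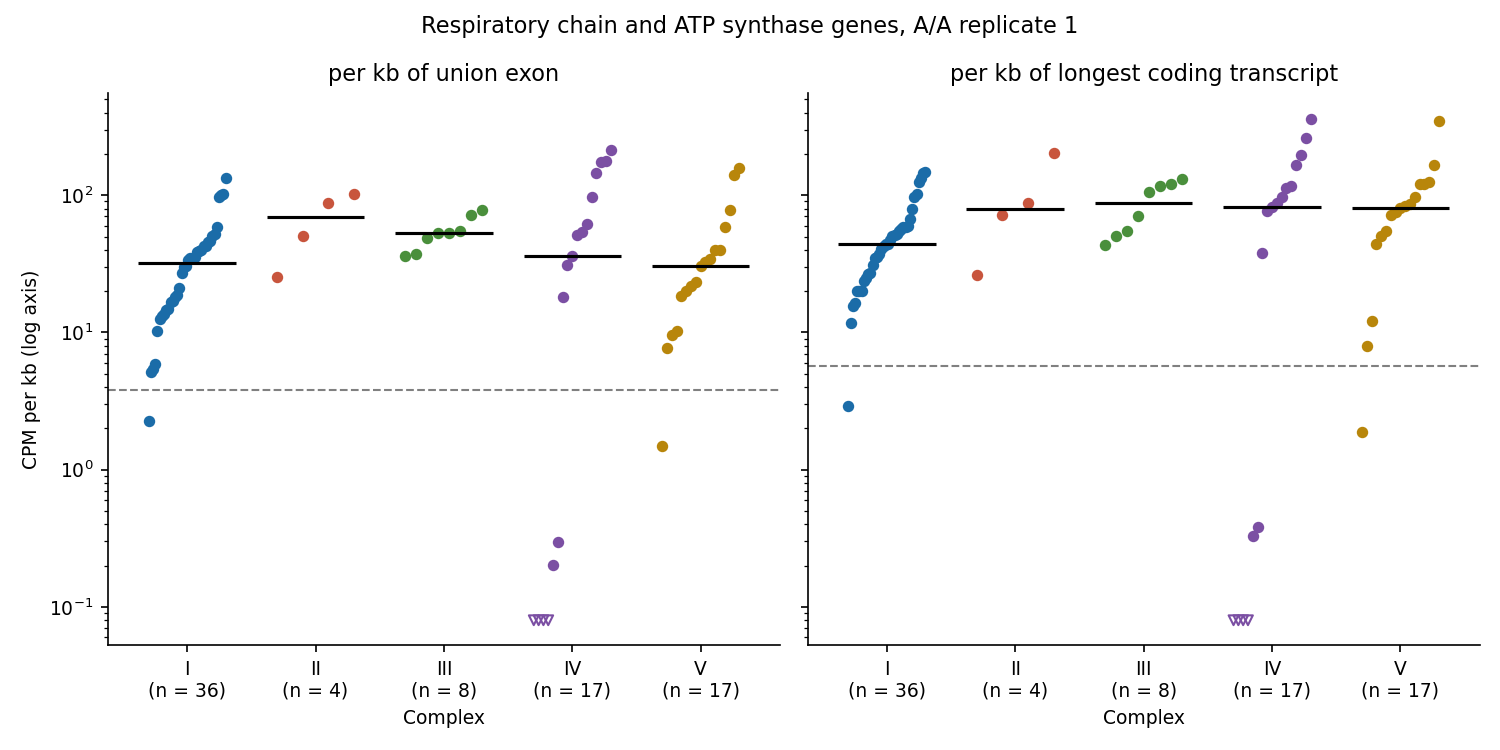
Level of each member in A/A replicate 1, grouped by complex, in CPM per kilobase of union exon (left) and of longest coding transcript (right) on a log axis. Points are genes, solid lines complex medians, the dashed line the median of protein-coding genes with reads, and open triangles genes at 0. Per union exon the 8 genes of complex III sit between 35.9 and 78.2 CPM/kb, while complexes I and V reach down to 2.26 and 1.48 CPM/kb, and the complex IV isoforms with under 10 reads stand apart at the bottom.

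Complex I is the NADH dehydrogenase, an L-shaped assembly with a matrix arm that carries flavin and iron-sulfur clusters and a membrane arm that pumps protons. All 36 of its members had reads, from 399 for *Ndufb2* to 3938 for *Ndufs8*. The highest levels were those of *Ndufa1*, a small membrane-arm subunit, with 134 CPM/kb (1763 reads, 56.1 CPM), *Ndufa2*, a matrix-arm accessory subunit, with 102 CPM/kb (1841 reads, 58.6 CPM), and *Ndufb9*, of the membrane arm, with 99.8 CPM/kb (3232 reads, 103 CPM). *Ndufa1* and *Ndufb9* kept a place among the highest 3 per kilobase of coding transcript, at 134 and 146 CPM/kb. *Ndufa7*, a matrix-arm accessory subunit, was the highest there with 148, against 42.8 CPM/kb of union exon. The lowest were *Ndufb2* with 2.26 CPM/kb, *Ndufs1* with 5.17 and *Ndufb5* with 5.39. *Ndufv3*, a matrix-arm accessory subunit, had 5.85 CPM/kb. For *Ndufb2* the low value depended in part on the annotated length. It had 2.91 CPM/kb of coding transcript and 40.3 per kilobase of coding sequence, where the median of complex I was 77.3. There it left the lowest 3 of the complex but was still the lowest of the 19 membrane-arm genes.

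The 7 nuclear core subunits of complex I, which form the path of electrons from NADH to coenzyme Q, did not share a level. *Ndufs8*, which holds 2 iron-sulfur clusters next to the membrane arm, had 97.1 CPM/kb (125 CPM; 95% interval, 121 to 129). *Ndufv2*, an iron-sulfur subunit, had 34.9 CPM/kb and *Ndufs7*, at the quinone pocket, 26.9. *Ndufs3* had 18.0 CPM/kb, *Ndufv1*, the flavin-binding subunit that accepts electrons from NADH, 14.8, and *Ndufs1*, the largest subunit, 5.17 (41.8 CPM; 39.5 to 44.1). The level of *Ndufs8* was thus 18.8-fold that of *Ndufs1* per union exon, 7.95-fold per coding transcript and 10.3-fold per coding sequence. Both proteins belong to the same matrix arm.

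The core subunits had a median of 26.9 CPM/kb, beside 22.9 for the 16 matrix-arm genes and 35.2 for the 19 membrane-arm genes. Per kilobase of coding transcript the matrix arm again had the lower median, 42.2 against 50.3, but the ranges of both arms overlapped. *Ndufa4*, named as a complex I subunit but known to associate with complex IV, had 29.8 CPM/kb (1292 reads). The remaining members of complex I lay between 10.2 CPM/kb for *Ndufb4* and 58.5 CPM/kb for *Ndufb6*. Thus 35 of the 36 stood above the median of protein-coding genes with reads, the exception being *Ndufb2*. Per kilobase of coding sequence all 36 did.

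**Figure D2:**
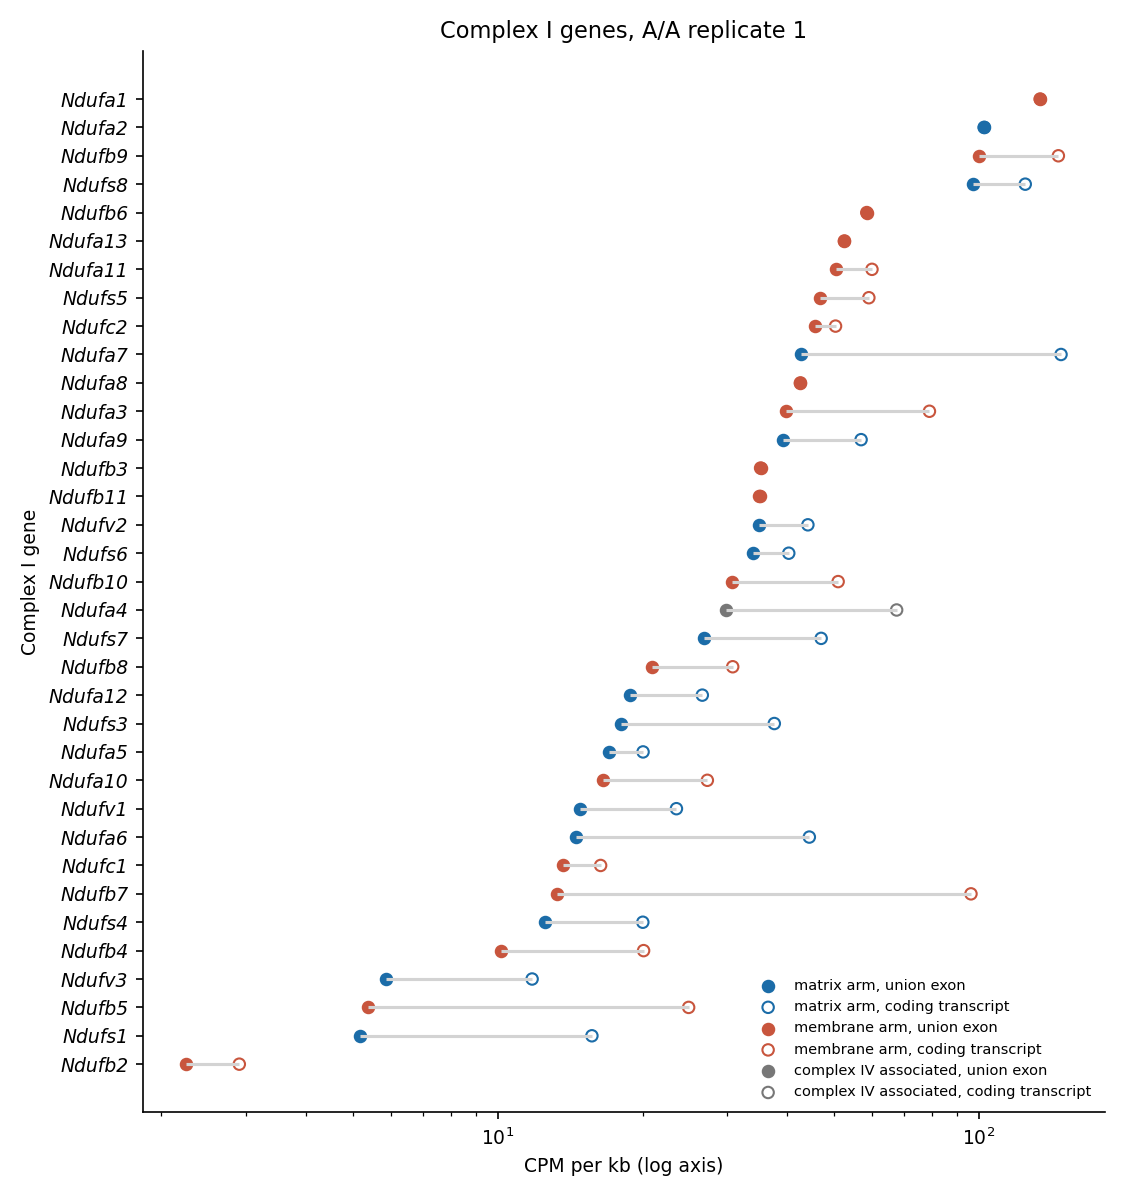
Level of complex I genes in A/A replicate 1, ordered by CPM per kilobase of union exon on a log axis, as filled points, joined to the value per kilobase of the longest coding transcript as open points, with colours for the arms of the complex. Core subunits are spread over the whole order, from *Ndufs8* at 97.1 to *Ndufs1* at 5.17 CPM/kb, and single genes such as *Ndufa7* move far between the length scales.

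Complex II, succinate dehydrogenase, links the tricarboxylic acid cycle to the chain. Its 4 genes had between 2594 and 7225 reads. *Sdhb*, the iron-sulfur subunit, had 230.0 CPM (225 to 235) and 103 CPM/kb, and *Sdha*, the flavoprotein that oxidizes succinate, had 209.5 CPM (204 to 215) and 50.8 CPM/kb. The catalytic partners, present in equal number in the complex, therefore differed 2.02-fold per union exon, 2.79-fold per coding transcript and 2.59-fold per coding sequence, always with *Sdhb* higher. The membrane anchors that hold the heme differed too: *Sdhd* had 87.7 CPM/kb and *Sdhc* 25.4. *Sdhc* was lowest with both exon-based lengths, but per kilobase of coding sequence it exceeded *Sdha*, with 163 against 105.

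Complex III, the cytochrome bc1 complex, had 8 members with 979 to 6839 reads. The highest per union exon were the small subunits *Uqcr10* (78.2 CPM/kb, 45.7 CPM) and *Uqcrb* (71.8 CPM/kb, 62.9 CPM) and the Rieske iron-sulfur protein *Uqcrfs1* (55.1 CPM/kb, 75.1 CPM), which passes electrons to cytochrome c1. *Uqcrh*, the hinge protein, had 53.2 CPM/kb. The structural core proteins *Uqcrc1* and *Uqcrc2* had 52.7 and 37.5 CPM/kb, a ratio of 1.41, which was 2.61 per coding transcript. The lowest were *Uqcrq* with 35.9, *Uqcrc2*, and *Uqcr11* with 48.6 CPM/kb. The order within this complex was not stable: of the highest 3 genes, only *Uqcrb* was also among the highest 3 per coding transcript, where *Uqcrc1* (132) and *Uqcrh* (120.3) preceded it (118).

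Complex IV, cytochrome c oxidase, held both the highest and the lowest genes of the set. *Cox6a1* had 214 CPM/kb (4714 reads; 150.1 CPM), *Cox4i1*, the largest nuclear subunit, 179 CPM/kb (8690 reads; 277 CPM), and *Cox8a* 173 CPM/kb (3368 reads; 107 CPM). These were the highest 3 of the complex under all 3 lengths, although *Cox4i1* came first per coding transcript with 362 against 263 CPM/kb for *Cox6a1*. *Cox6b1*, on the intermembrane side, had 144 CPM/kb, and *Cox5b* 61.2. The lowest of the genes with at least 10 reads were *Cox6c* with 18.3 CPM/kb, *Cox7b* with 31.1 and *Cox5a* with 36.0. Per coding transcript *Cox6c* and *Cox5a* left the lowest 3, with 88.2 and 117 CPM/kb, but per coding sequence *Cox5a* was among them again, with 173. The 10 genes that are single or ubiquitous isoforms had a median of 57.5 CPM/kb, all above the upper quartile of protein-coding genes.

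Of the 7 isoforms known for restricted tissue distribution, *Cox6a2* alone was expressed at the level of the ubiquitous subunits. *Cox6a2* is the heart and skeletal muscle form of subunit VIa and is also known as a gene enriched in pDCs. It had 2059 reads, 65.6 CPM (62.8 to 68.5) and 96.4 CPM/kb, at percentile 96.9 of genes with reads and 5th in complex IV. By CPM it stood at percentile 85.1, and it was 7th in complex IV per coding transcript and 8th per coding sequence. The gene lies at chr7:128205435-128206387 on the minus strand (GRCm38). Its reads were 30.4% of those of the *Cox6a1* and *Cox6a2* pair (29.3% to 31.5%), and 26.8% of the pair's level per coding transcript. *Cox6a1* was 2.29-fold higher in CPM (2.17 to 2.41) and 2.22-fold higher in CPM/kb.

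Whether reads could pass between the pair was examined on their coding sequences. The last 150 coding bases, with the stop codon, are shown from the GENCODE M21 transcripts (GRCm38), spliced, for *Cox6a1* from chr5:115345843-115348630 and for *Cox6a2* from chr7:128205729-128205965, both on the minus strand. Capitals mark the 49 positions at which they differ.
Cox6a1: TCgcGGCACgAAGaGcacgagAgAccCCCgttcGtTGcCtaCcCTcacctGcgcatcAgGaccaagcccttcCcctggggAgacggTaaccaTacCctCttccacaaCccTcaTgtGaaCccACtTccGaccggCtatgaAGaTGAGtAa
Cox6a2: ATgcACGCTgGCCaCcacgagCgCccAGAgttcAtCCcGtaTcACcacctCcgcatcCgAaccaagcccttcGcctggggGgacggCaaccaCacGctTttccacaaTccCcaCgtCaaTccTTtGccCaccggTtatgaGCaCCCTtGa
The aligned coding sequences were 64.6% identical, with no identical run over 12 bases, far below the length of a read. Of the 50-base windows of *Cox6a2* transcripts, 3.33% occurred in another gene, *Itgad*, a neighbour with 93 reads. Exons on the opposite strand covered 10.3% of the exon bases of *Cox6a2*, and the use of strand in counting is not given in the sources used here.

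Most other muscle markers were at or near 0. Of 12 striated muscle markers, 6 had reads, and their levels ranged from 0 to 15.9 CPM. *Ckm*, *Ttn*, *Actc1*, *Myh1*, *Myh2* and *Myh4* had 0 reads, and *Tnni2*, a fast troponin, had the most, with 10.6 CPM/kb, above the median of protein-coding genes with reads. Muscle forms outside the list went the other way: *Eno3*, the muscle enolase, had 66.1 CPM and *Slc25a4*, an ADP/ATP translocase known from heart and muscle, 81.2 CPM, both named after their values were seen. *Cox7a1* and *Cox8b*, the heart and muscle forms of subunits VIIa and VIII, which accompany *Cox6a2* in muscle, had 5 and 0 reads. Of 6 brown fat markers, only *Fabp4* had reads (1.43 CPM), and *Ucp1* had 0.

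In the other complex IV families the isoforms of restricted tissue distribution held few or no reads. *Cox4i2*, the lung form of subunit IV, had 0 reads beside 8690 for *Cox4i1*, so that 3 reads would be 0.0345% of the pair, and its exact upper 95% limit was 0.0424%. *Cox8b* and *Cox8c*, the latter a testis form, had 0 beside 3368 for *Cox8a*, with 3 reads at 0.0891% and an upper limit of 0.109% each, and *Cox7b2*, also of testis, 0 beside 1186 for *Cox7b*, with 3 reads at 0.253% and an upper limit of 0.311%. The testis form *Cox6b2* had 7 reads, 0.223 CPM and 0.217% of its pair with *Cox6b1* (0.0874% to 0.447%). *Cox7a1* had 0.159 CPM and 0.160% of its family (0.0521% to 0.374%), the remainder being divided between *Cox7a2* (51.1%, 1591 reads) and *Cox7a2l*, a supercomplex assembly factor (48.8%, 1520 reads). Per kilobase of union exon the share of *Cox7a2* was 61.9%. *Ndufa4l2*, the hypoxia-associated relative of *Ndufa4*, had 0 reads beside 1292.

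**Figure D3:**
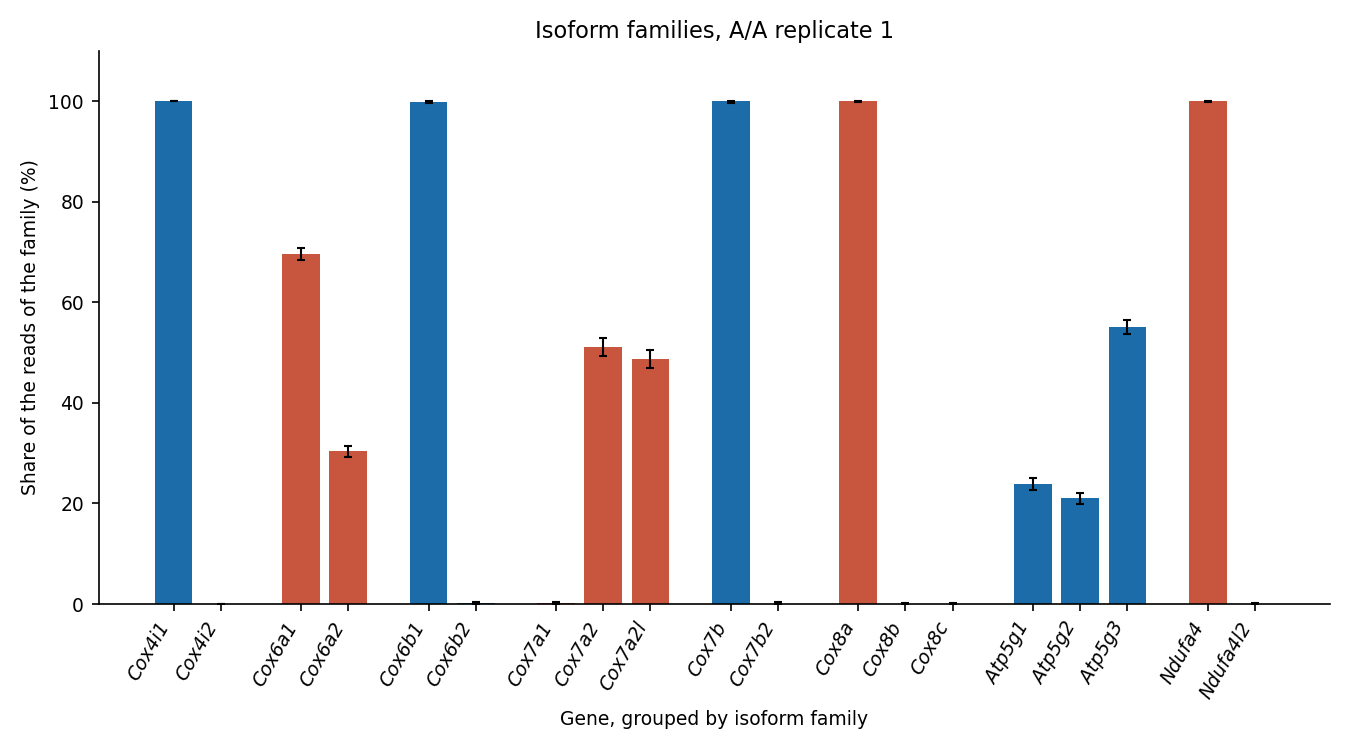
Share of the reads of each isoform family held by each gene in A/A replicate 1, in percent of the family's reads, with exact binomial 95% intervals as error bars and colours alternating between families. Among the complex IV isoforms of restricted tissue distribution only *Cox6a2*, at 30.4%, has a visible share, and the c-subunit genes *Atp5g1*, *Atp5g2* and *Atp5g3* all contribute.

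Complex V, the ATP synthase, contained the members with the most reads. *Atp5b*, the catalytic beta subunit of the F1 head, had 20893 reads, 665 CPM (656 to 674) and 157 CPM/kb, and *Atp5a1*, the alpha subunit, had 13923 reads, 443 CPM (436 to 451) and 141 CPM/kb. The head holds alpha and beta in equal number, and their levels differed 1.11-fold per union exon, 2.09-fold per coding transcript and 1.57-fold per coding sequence. *Atp5c1*, the gamma subunit of the rotating stalk, of which each complex holds a single copy, had 4706 reads, 149.8 CPM and 78.5 CPM/kb. *Atp5b* was 2.0-fold above it per union exon, 4.02-fold per coding transcript and 2.50-fold per coding sequence. *Atp5h*, of the peripheral stalk, had 58.2 CPM/kb and 125 per coding transcript, placing it next after the alpha and beta subunits on the latter scale.

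The low end of complex V was made of *Atp5s* with 1.48 CPM/kb (95 reads, 3.02 CPM), *Atp5g1* with 7.69 CPM/kb (1187 reads, 37.8 CPM) and *Atp5sl* with 9.58 CPM/kb (909 reads, 28.9 CPM). *Atp5s* and *Atp5sl* match the symbol rule but are not structural subunits: the former is known as a coupling factor and the latter, renamed *Dmac2*, as an assembly factor of complex I. Without them the median of complex V was 32.6 CPM/kb. *Atp5l*, the g subunit of the membrane part, had the largest gap between lengths of any member, with 10.2 CPM/kb of union exon and 121 CPM/kb of coding transcript. The 15 structural subunits all stood above the median of protein-coding genes with reads.

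The c ring, the rotor turned by protons, is encoded by *Atp5g1*, *Atp5g2* and *Atp5g3*, whose mature proteins are the same and whose mitochondrial targeting sequences differ. All of them were expressed, with 1187, 1047 and 2749 reads. *Atp5g3* held 55.2% of the reads (53.8% to 56.6%), *Atp5g1* 23.8% (22.6% to 25%) and *Atp5g2* 21% (19.9% to 22.2%). Per kilobase of union exon their levels were 40.1, 7.69 and 19.9 CPM/kb, so *Atp5g3* led on every scale. The order of *Atp5g1* and *Atp5g2* was reversed by length, because *Atp5g1* has 4912 bases of union exon against 1675 for *Atp5g2*. Their longest coding transcripts have 4715 and 753 bases. Per kilobase of coding sequence *Atp5g1* was again the higher of the pair, with 92.6 against 76.1.

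The last 180 coding bases of each gene, which include the stop codon, show how far genes for the same mature protein can be told apart by reads. They are spliced from GENCODE M21 transcripts (GRCm38), *Atp5g1* from chr11:96073104-96073587, *Atp5g2* from chr15:102663014-102665118 and *Atp5g3* from chr2:73908593-73909248, all on the minus strand. Capitals mark the 47 positions that are not the same in all of them.
Atp5g1: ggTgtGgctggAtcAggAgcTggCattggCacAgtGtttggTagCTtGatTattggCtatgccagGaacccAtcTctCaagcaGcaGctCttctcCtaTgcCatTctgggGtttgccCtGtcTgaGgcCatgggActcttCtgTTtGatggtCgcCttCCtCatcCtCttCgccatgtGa
Atp5g2: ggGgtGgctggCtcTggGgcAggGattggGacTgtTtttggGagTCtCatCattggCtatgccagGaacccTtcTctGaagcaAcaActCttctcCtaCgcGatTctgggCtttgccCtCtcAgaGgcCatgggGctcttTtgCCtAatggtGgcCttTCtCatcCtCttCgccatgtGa
Atp5g3: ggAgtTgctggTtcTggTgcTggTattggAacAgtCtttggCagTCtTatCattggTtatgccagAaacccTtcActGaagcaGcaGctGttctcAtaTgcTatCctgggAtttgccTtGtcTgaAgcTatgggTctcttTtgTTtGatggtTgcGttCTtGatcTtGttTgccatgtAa
The aligned coding sequences were 74.8% identical between *Atp5g1* and *Atp5g2*, 70.7% between *Atp5g1* and *Atp5g3* and 71.1% between *Atp5g2* and *Atp5g3*. The longest identical runs were 21, 11 and 8 bases. *Atp5g2* nevertheless shared 38.3% of its 50-base transcript windows with other annotated genes, so its count is less certain than that of *Atp5g3*.

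Processed pseudogenes are common for this gene group and could take reads from it or lend reads to it. Of the 82 members, 34 had no 50-base window in another gene, 18 had at least 10% of their windows there and none had 50%. The most were found for *Atp5o* (41.6%), *Atp5g2* (38.3%) and *Ndufb6* (31.6%). Not all of these lay in pseudogenes. The pseudogene *Gm10175* held 36.7% of the windows of *Atp5g2*. Those of *Ndufb6* lay in the protein-coding *Smim27*, and the largest shares of *Atp5o* in the antisense genes *Gm15976* (15.5%) and *D430001F17Rik* (12.1%). Windows were matched on both strands, so overlap with exons of the opposite strand can count here as well as below. Of 40 pseudogenes that shared at least 1% of a member's windows, 39 were in the file and 29 had reads. Their summed count was 572 reads, 0.296% of the reads of the members. Exons of genes on the opposite strand covered at least 10% of the exon bases of 10 members, most in *Ndufb6* (39.0%) and *Atp5o* (35.6%). Exons of another gene on the same strand covered at least 10% in 2 members, *Ndufb9* (19.5%) and *Atp5o* (12.3%). These are shares of bases, not of reads, and what they do to the counts was not tested.

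The partner subunits encoded by mitochondrial DNA could not be measured beside the nuclear ones. All 13 mitochondrial genes, mt-Nd1 to mt-Nd6 with mt-Nd4l, mt-Cytb, mt-Co1 to mt-Co3, mt-Atp6 and mt-Atp8, were listed at 0. For some of them, nuclear pseudogene copies had reads. *Gm10925*, in which 99.5% of the 50-base windows of mt-Atp6 occur, had 1129 CPM, and *Gm28437*, with 99.9% of those of mt-Co3, had 1093 CPM. *Gm29216*, with 28.7% of the windows of mt-Co1, had 1372 CPM, and *Gm28439*, with 62.2% of those of mt-Nd4, had 194 CPM. *Gm13339* held only 8.19% of the windows of mt-Nd2 (0.669 CPM), and *Gm4076* 4.11% of those of mt-Nd5 (0.987 CPM). For others, such as mt-Nd1 and mt-Cytb, no copy with at least 1% of the windows was found. Why all 13 genes were at 0 was not tested. Reads of a mitochondrial gene and of such a copy cannot be told apart from these values, so no ratio of mitochondrial to nuclear subunits is given.

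Other genes of the pathway were read in the same way. The assembly factors, proteins needed to build the complexes but not kept in them, had lower levels than the subunits. For complex I, 15 of 15 had reads, with a median of 4.30 CPM/kb, from 0.203 for *Ndufaf2* to 25 for *Ndufaf8*. For complexes II, III and V, 14 of 14 had reads, with a median of 4.92 CPM/kb, from 0.227 for *Lyrm7* to 37.9 for *Tmem70*. For complex IV, 25 of 25 had reads, with a median of 7.27 CPM/kb, from 0.873 for *Pet117* to 136 for *Cox14*. All 3 medians stood below the lowest complex median, 30.4 CPM/kb. The list of electron carriers, which held cytochrome c, cytochrome c1 and the enzymes of coenzyme Q synthesis, had a median of 4.31 CPM/kb over 13 of 13 genes. Cytochrome c (*Cycs*) was the highest with 63.0 CPM/kb and *Coq7*, a hydroxylase of the synthesis, the lowest with 0.361. Cytochrome c1 (*Cyc1*, 48.2 CPM/kb) is itself a subunit of complex III and also counts in the next list.

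Subunits and associated proteins whose symbols the rule did not match had a median of 23.2 CPM/kb, with reads for 6 of 7. *Atpif1*, the inhibitor of ATP hydrolysis by the synthase, was the highest with 99.9 CPM/kb, and *Ndufa4l2* was at 0. The carriers of ADP and phosphate had a median of 26 CPM/kb, with reads for 6 of 7. *Slc25a5*, an ADP/ATP translocase, was the highest with 108 CPM/kb and held 68.6% of the reads of its family, *Slc25a4*, the form known from heart and muscle, held 31.4% (30.4% to 32.4%), and the testis form *Slc25a31* had 0 reads. The 14 genes of the tricarboxylic acid cycle, all with reads, had a median of 17.3 CPM/kb, from 2.93 for *Suclg2* to 35.2 for *Mdh2*. The 17 glycolysis genes, all with reads, had a median of 27.1 CPM/kb, from 0.162 for *Pfkm*, the muscle phosphofructokinase, to 117 for *Pkm*, pyruvate kinase. Per kilobase of union exon, the median of the respiratory genes, 35.1 CPM/kb, exceeded that of each of these lists. By CPM, which is not scaled by length, the order differed. The median of the respiratory genes was then 55.6, above the left-out subunits (35.7). It was below the carriers (81.2), glycolysis (67.0) and the tricarboxylic acid cycle (61.4).

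Nuclear regulators known to act on respiratory genes had a median of 2.63 CPM/kb, with reads for 12 of 15 and 5 above the median of protein-coding genes with reads. *Gabpa*, an ETS factor that binds many promoters of subunits, was the highest with 10.2 CPM/kb, and *Gabpb1*, its partner, had 6.70. *Tfam*, which maintains mitochondrial DNA and was named after its value was seen, had 7.71 CPM/kb. *Esrra* had 4.83 CPM/kb, *Yy1* 4.14 and *Nrf1* 2.92. *Ppargc1a*, the coactivator of mitochondrial biogenesis known from muscle and brown fat, and *Esrrb* and *Esrrg* had 0 reads, while *Ppargc1b* had 0.511 CPM/kb.

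**Figure D4:**
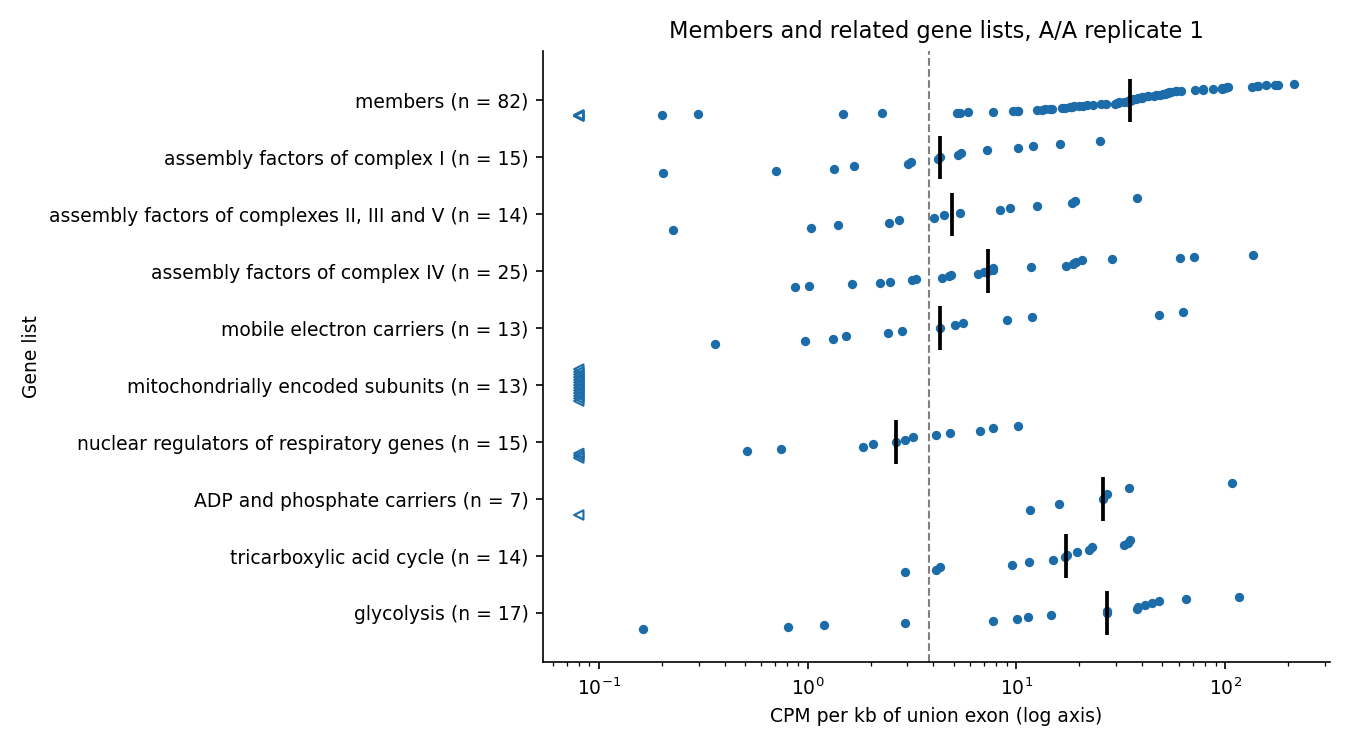
Level of each of the 82 members and of each gene of the pathway lists in A/A replicate 1, in CPM per kilobase of union exon on a log axis, with a bar at each list's median, open triangles for genes at 0 and a dashed line at the median of protein-coding genes with reads. The members sit higher, at a median of 35.1 CPM/kb, than the assembly factors at 4.30 to 7.27 and the regulators at 2.63 CPM/kb.

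Promoter windows were then examined for letters that these regulators recognise. RefSeq windows (GRCm38.p6) of 250 bases before to 50 after an annotated start were found for 65 of the 82 members, 70 windows in all. No window was matched for *Cox6a2* or for 16 other members. Both strands were searched, matches of different motifs may overlap, and a match is a description of the letters, not a binding site. The NRF1 motif (GCGCA, any base, GCGC) was in 25.7% of member windows, against 9.87% of the 11986 windows of protein-coding genes with reads and 4.6% of all 32851. The ETS motif CCGGAAG was in 22.9% (17.7% and 8.86%), the YY1 motif AAGATGG in 14.3% (7.13% and 6.34%) and the ERR motif AAGGTCA in 11.4% (3.25% and 4.72%).

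At least 1 of these 4 motifs was found in 39 of the 70 windows, or 55.7%, against 33.0% of windows of protein-coding genes with reads. At least 2 were found in 11, or 15.7%, against 4.71%. Among the other motifs, CCAAT was in 42.9% (37.9% of windows of protein-coding genes with reads and 37.4% of all windows). CANNTG, the E-box, was in 67.1% (64.3% and 72.3%) and TATAAA in 11.4% (7.22% and 13.6%). The element of interferon-stimulated genes (GAAA, any 2 bases, GAAA) was in 2.86% (3.54% and 3.44%). Of the isoforms with under 10 reads, *Cox6b2*, *Cox7a1*, *Cox7b2* and *Cox8b* had a window, and none of the 4 windows held NRF1, ETS, YY1 or ERR letters. The expressed *Cox7a2* and *Cox7b* held none either, so the letters did not separate expressed from silent isoforms.

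**Figure D5:**
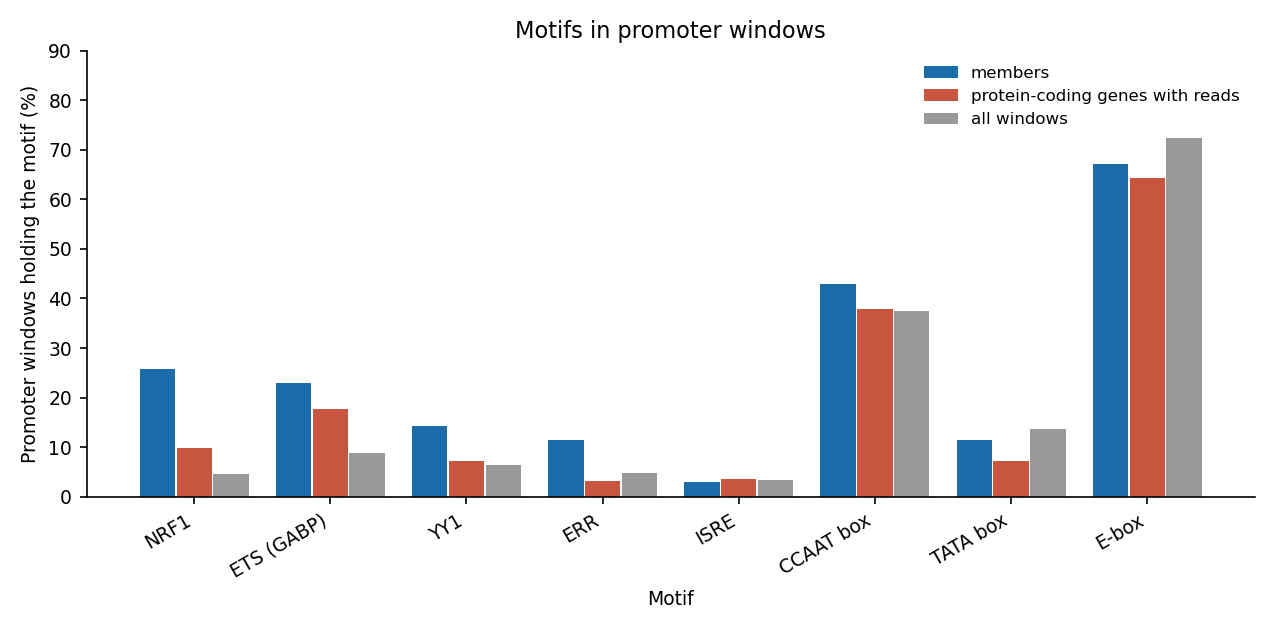
Percent of 300-base promoter windows that hold each motif, for the 70 windows of members, the 11986 windows of protein-coding genes with reads and all 32851 windows. The members' bars exceed both others for NRF1, ETS, YY1 and ERR letters, most for NRF1 at 25.7%, and lie near them for CCAAT and the E-box.

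Windows of 4 genes are shown in 5′ to 3′ direction of the gene because they span the contrast: *Cox6a1*, the highest member per union exon, and *Cox8a*, both ubiquitous isoforms, *Cox8b*, the muscle isoform with 0 reads, and *Sdhd*, which held 3 of the 4 respiratory motifs. They lie at chr5:115348909-115349208, chr19:7217567-7217866, chr7:140900397-140900696 and chr9:50603800-50604099 (RefSeq, GRCm38.p6), all on the minus strand. Capitals mark NRF1, ETS, YY1, ERR, CCAAT and TATAAA letters on either strand.
Cox6a1: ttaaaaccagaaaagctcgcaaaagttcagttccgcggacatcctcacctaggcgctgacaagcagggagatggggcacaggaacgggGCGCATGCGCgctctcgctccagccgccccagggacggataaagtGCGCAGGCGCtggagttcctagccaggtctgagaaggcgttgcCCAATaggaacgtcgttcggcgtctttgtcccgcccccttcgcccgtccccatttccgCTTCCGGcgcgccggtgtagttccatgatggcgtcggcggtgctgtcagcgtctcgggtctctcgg
Cox8a: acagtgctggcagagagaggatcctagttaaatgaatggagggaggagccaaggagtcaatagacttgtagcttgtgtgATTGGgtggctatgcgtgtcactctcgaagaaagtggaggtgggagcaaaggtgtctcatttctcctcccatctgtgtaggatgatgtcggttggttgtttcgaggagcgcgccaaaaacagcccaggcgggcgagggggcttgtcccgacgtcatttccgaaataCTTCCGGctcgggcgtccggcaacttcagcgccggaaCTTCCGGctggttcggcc
Cox8b: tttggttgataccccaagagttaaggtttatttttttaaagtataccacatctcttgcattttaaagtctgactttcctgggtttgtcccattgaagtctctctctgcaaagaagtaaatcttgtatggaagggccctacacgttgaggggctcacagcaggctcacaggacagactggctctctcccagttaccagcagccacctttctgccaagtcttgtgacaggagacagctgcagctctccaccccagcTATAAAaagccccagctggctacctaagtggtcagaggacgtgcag
Sdhd: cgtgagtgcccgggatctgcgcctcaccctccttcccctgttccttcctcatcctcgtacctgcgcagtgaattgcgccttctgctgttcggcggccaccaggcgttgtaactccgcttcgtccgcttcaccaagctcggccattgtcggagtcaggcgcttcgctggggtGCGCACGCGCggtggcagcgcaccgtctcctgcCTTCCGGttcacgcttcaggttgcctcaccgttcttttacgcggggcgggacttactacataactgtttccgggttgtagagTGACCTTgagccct
The *Cox6a1* window held NRF1 letters at -162 and -117 from the annotated start, CCAAT at -74 and ETS letters at -16. The *Cox8a* window held ETS letters at -5 and 32 and CCAAT at -171, whereas the *Cox8b* window held only TATAAA at 4. The *Sdhd* window held NRF1 letters at -79, ETS letters at -46 and ERR letters at 36.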

How the data were processed

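Splenic pDCs were sorted and stimulated by the authors, and mRNA libraries were sequenced as 150 bp paired-end reads. The submitters' processing notes name HISAT2 and StringTie and the builds mm8 and mm10. The counting tool, annotation and use of strand are not given in the sources used here. The deposited values are a normalized signal for each gene. In the deposited signal, 100% of values above 0 were whole multiples, within 0.01, of 1 step of 1.19, so whole read counts were recovered as value divided by step. The total was 31408298 reads, and 3 reads correspond to 0.0955 CPM. A count of 0 has an upper 95% limit of 0.117 CPM.

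CPM was reads over total times 1000000. Lengths, coordinates and transcript windows of 50 and 150 bases came from GENCODE M21 (GRCm38), to which 99.7% of gene IDs matched, and all 82 members, 70 with identical coordinates. Exact Clopper-Pearson 95% intervals, promoter motif counts and figures were made with Python 3.11.15, scipy 1.17.1, pandas 2.3.3 and matplotlib 3.10.9. Recovery of counts was tested on 3 simulated libraries, made as whole counts over 1 factor, with 100% of values recovered. The simulation checks the code, not whether the deposited signal has that form.

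Groups came from the sample labels. With 1 library no test was made. Named were the 3 highest and 3 lowest genes of each complex, genes under 10 reads, catalytic subunits, isoform families and the extremes of each list. Some values are not reported here. Members, lists, markers and rules were chosen with earlier results of these data known. In the lists, *Coa1* and *Aldoa* were left out because the symbol was not found or not unique. Alternatives were other lengths, percentiles by CPM, read minimums, members, denominators and a pseudocount of 0.1 in place of 1.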

Additional observations from a re-analysis of the deposited data

How the results depend on the processing

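All values came from 1 library at 31408298 reads. Counting error thus limits the genes near 0 and the order of genes at nearly the same level. No replicate, genotype or unstimulated sample bounds the rest. No paired analysis was possible because only 1 library was analysed and no test was made. The length used moved the levels most. Per kilobase of coding transcript and of coding sequence, median levels were 56.0 and 127 for all members, 44.3 and 77.3 for complex I, 80.0 and 195 for complex II, 87.6 and 187 for complex III, 82.0 and 203 for complex IV, and 80.6 and 174 for complex V. The ratio of the upper to the lower quartile per coding transcript was 3.59 for all members, 2.26 for complex I, 1.91 for complex II, 2.19 for complex III and 2.39 for complex V. Among genes with at least 10 reads, complex IV had a median of 61.2 CPM/kb and a quartile ratio of 3.63. Without members that had 10% or more of shared 50-base windows, medians were 31.1 CPM/kb for complex IV and 26.8 for complex V. With *Ndufa4* counted in complex IV its median was 33.6 CPM/kb. The share of reads was 0.639% over reads of protein-coding genes and also with the subunits the symbols left out, the inhibitor *Atpif1* not being added. Per kilobase of coding transcript, isoform shares were 73.2% for *Cox6a1*, 26.8% for *Cox6a2*, 64.0% for *Cox7a2*, 4.62% for *Atp5g1*, 25.5% for *Atp5g2* and 69.8% for *Atp5g3*. Per kilobase of union exon they were 61.9% for *Cox7a2*, 11.4% for *Atp5g1*, 29.4% for *Atp5g2* and 59.3% for *Atp5g3*. Restricting lists to genes with at least 10 reads, a choice made after seeing the data, gave medians of 28 CPM/kb for the left-out subunits and 3.07 for the regulators. Percentiles taken by CPM moved for 75 of 78 genes, 67 of the 78 being lower, most for *Atp5k* (25.5 points), and among genes with at least 10 reads all 76 were lower, most for *Atp5s* (11.6 points). A pseudocount of 0.1 moved the log2 level of 3 of 78 genes, most for *Cox7a1* (2.16 lower).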
